A study of Rattus norvegicus with 2 samples.

Results

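Genes of myelin and of the oligodendrocyte lineage were followed in the hypothalamus of tickled rats. The 9 members were Mbp, Mag, Mog, Mobp, Cnp, Mal, Cldn11, Olig1 and Sox10, out of 12092 named genes with a value. They were chosen by name, with earlier results of these data known. Every probe whose platform symbol is one of these names was taken, which gave 14 of the 44290 probes in the table. Mobp had 3 probes, Mbp, Mog and Cnp had 2 each, and the other 5 members had 1 each. All 14 probes had a value on both arrays, whereas 30.2% of all probes were empty on the array with no-stimulus RNA and 31.96% on the array with light-touch RNA. The members lie on 9 different chromosomes of the rat.

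The animals were male Wistar rats that entered the study at 21 days of age, after weaning, and were kept singly behind screens. The tickled group received a hand stimulation that imitates rough play. The light-touch group was handled with a gentle touch, and the no-stimulus group was not stimulated. Per the labels there were 4 animals in each of the 3 conditions, and the daily session, held from Monday to Friday over 4 weeks, alternated 15 s pauses with 15 s of touch or tickling. RNA of the tickled group was in the Cy5 channel of both arrays. Cy3 carried the no-stimulus RNA on the array called the no-stimulus array here, and the light-touch RNA on the light-touch array. Each comparison thus rests on a single array without a dye swap, and both share the tickled group. Any pooling of animals within a condition is not given in the sources used here, and it is not stated if a single tickled RNA served both arrays.

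Oligodendrocytes wrap the axons of the central nervous system in layers of membrane, the myelin sheath, which insulates the axon and speeds its impulses. Transcription factors of the lineage, among them Olig1, Olig2 and Sox10, set the identity of these cells, and Sox10 together with Myrf turns on the genes of the sheath in maturing cells. The hypothalamus is a grey matter region crossed and bordered by myelinated tracts such as the fornix, the mammillothalamic tract and the optic chiasm.

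The measure throughout is the deposited ratio of the 2 dyes of a probe, read as tickled over control, so that a ratio above 1 is a higher signal in tickled rats. This direction is likely from the placement of the dyes but is not stated, and with control in the numerator every direction below turns round. A gene's value is the median of the log2 ratios of its probes. Over all genes the median log2 ratio was 0.01 on both arrays and genes spread by 0.20 (SD, no-stimulus array) and 0.22 (SD, light-touch array). Probes of the same gene spread by 0.18 log2 units (pooled SD; median gene 0.09) on either array, over 4354 and 4226 genes with several probes. With 1 array per comparison no p-value could be had, the spread between animals is unknown, and the number of arrays limits the precision of every value. A two-colour ratio carries no expression level, so the members could not be checked as oligodendrocyte genes by their abundance, and in whole tissue fewer cells of a type and less RNA per cell cannot be told apart.

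Against no stimulus, most of the myelin genes lay close to 1. Mag, Mog, Cnp, Mal and Olig1 were within 2% of 1, while Sox10, Mbp, Mobp and Cldn11 lay above it. The 9 members ran from 0.98 to 1.22, with a median log2 ratio of 0.03. In this comparison 7 members were above 1, against 51.8% of all genes, and 2 were below 1, against 45.1%. At 1.1-fold or more above 1 there were 3 members (all genes 20.4%), and at 1.1-fold or more below 1 there were 0 (all genes 12%). None of the 9 was 1.5-fold or more from 1 in either direction, a distance that 1.98% of all genes reached.

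Sox10, the HMG-box transcription factor that activates the genes of the sheath, had the highest ratio of the 9 on the no-stimulus array, at 1.22 from 1 probe, and lay at percentile 93.0 of all genes. The other transcription factor, Olig1, a helix-loop-helix protein of the same lineage, had a ratio of 0.98 from 1 probe and was the lowest of the 9. Sox10 and Olig1 therefore stood at opposite ends of the members in this comparison. Olig1, at percentile 37.5, lay close to Mag at 0.99 and to Mog and Cnp at 1.01.

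Among the proteins of compact myelin, Mbp, the cytosolic protein that holds the inner faces of the sheath together, had ratios of 1.28 and 1.04 at its probes and a gene value of 1.15. The higher of these came from the probe for the transcript record NM_001025293 and the lower from that for NM_001025291. They differed by 0.30 log2 units, where the median range over genes with several probes was 0.15. Mobp, a small basic protein of compact central myelin, had ratios of 1.15, 1.1 and 1.07 and a gene value of 1.1, so that all 3 of its probes lay above 1. Cldn11, the claudin that forms tight junctions between the layers of the sheath, had a ratio of 1.07, and Mal, a proteolipid of membrane sorting, a ratio of 1.02.

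The remaining members belong to the noncompact parts and the surface of the sheath. Cnp, the cyclic nucleotide phosphodiesterase of the cytoplasmic channels of myelin, had ratios of 1.04 and 0.99 and a gene value of 1.01. Mog, the glycoprotein of the outermost layer, had ratios of 1.03 and 1, with a gene value of 1.01. Mag, the adhesion molecule on the membrane that faces the axon, had a ratio of 0.99. None of these genes was further from 1 than probes of the same gene usually are from each other.

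**Figure D1:**
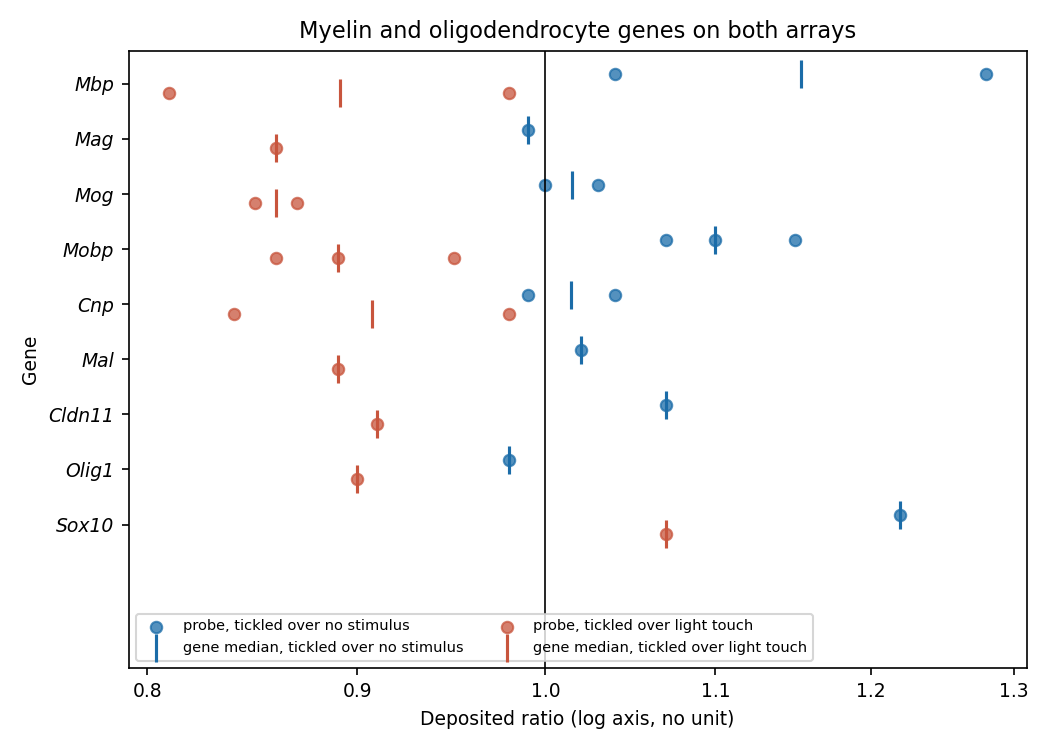
Deposited ratio (horizontal log axis, no unit) of every probe of the 9 members, as points, and the gene value, as ticks, with tickled over no stimulus in blue and tickled over light touch in red. The red gene values of 8 members lie between 0.860 and 0.910, left of 1, with Sox10 at 1.07, and the blue values run from 0.98 to 1.22.

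Against light touch, 8 of the 9 members had a ratio below 1, and they lay close together, between 0.860 and 0.910. Sox10 was the exception, at 1.07. The median log2 ratio of the 9 was -0.17, where that of all genes was 0.01. Of all genes, 46.1% lay below 1 and 51.3% above. At 1.1-fold or more below 1 there were 7 members, against 15.3% of all genes, and at 1.1-fold or more above 1 there were 0, against 19.5%. Again none reached 1.5-fold in either direction, which 2.49% of all genes did. The 8 low gene values, from -0.22 to -0.14 on the log2 scale, are about as far from 1 as the pooled spread of 0.18 between probes of a gene. They are further from 1 than the spread of the median gene with several probes, which was 0.09 (SD).

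As deposited, the surface glycoproteins were the lowest members on the light-touch array, an order that changed with the choice of probes. Mag had a ratio of 0.86 from its single probe. Mog had ratios of 0.87 and 0.85 and a gene value of 0.860. Mag lay at percentile 8.55 of all genes and Mog at 8.14, and the Mog probes differed by 0.03 log2 units.

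Mbp had ratios of 0.98 and 0.81 and a gene value of 0.891. The probe for NM_001025291 gave the lowest ratio of all 14, and the probe for NM_001025293 lay near 1. Mobp had ratios of 0.89, 0.86 and 0.95, with a gene value of 0.890. Cnp had ratios of 0.98 and 0.84, a gene value of 0.907 and a difference of 0.22 log2 units between its probes. Mal and Cldn11, with 1 probe each, had ratios of 0.89 and 0.91. Cldn11 lay just short of the 1.1-fold limit. In each of the 4 members with several probes, every probe lay below 1, and the probes differed in how far.

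The transcription factors again lay apart. Olig1 had a ratio of 0.90, with the myelin genes, while Sox10 had a ratio of 1.07, at percentile 74.0 of all genes. Of the 14 probes, 13 lay below 1, against 46.3% of all probes on this array, and the exception was that of Sox10. On the no-stimulus array 3 of the 14 lay below 1, 1 was at 1 and 10 lay above (47.2% of all probes were below 1).

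**Figure D2:**
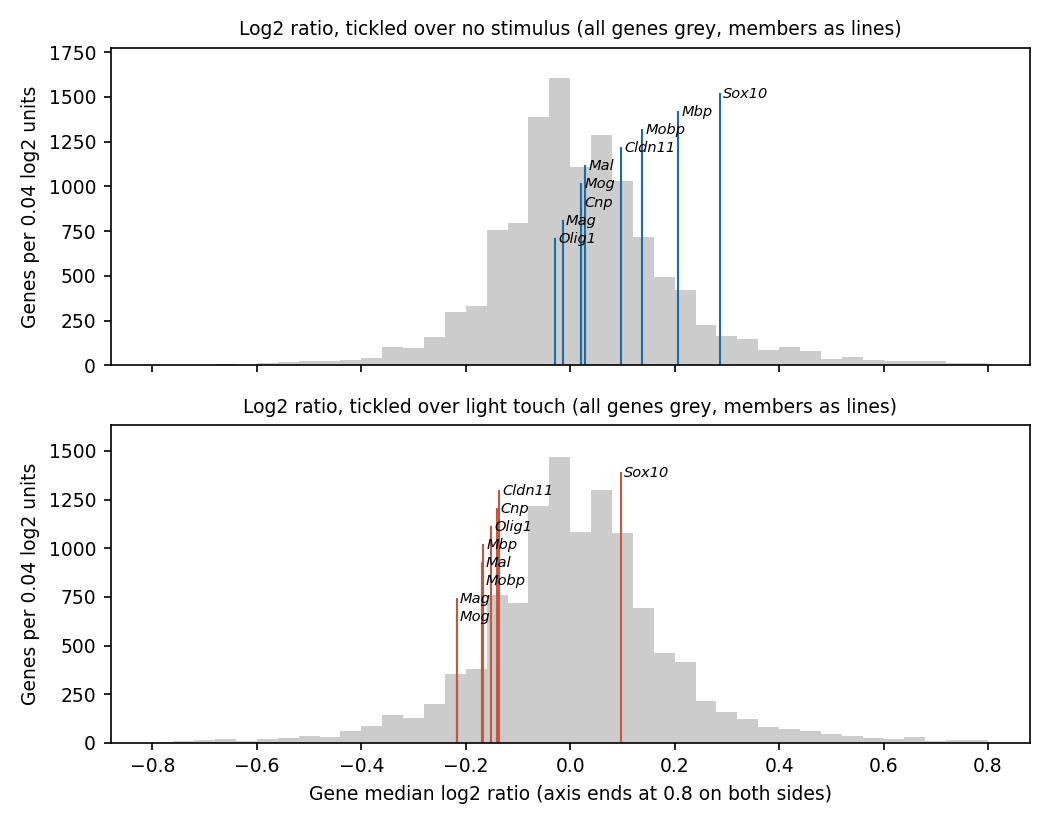
Histograms of the gene median log2 ratio (horizontal axis) of all genes in grey, counted per bin of 0.04 log2 units (vertical axis), for tickled over no stimulus in the upper panel and tickled over light touch in the lower, with the members as labelled lines. Against light touch 8 members sit left of the peak, from percentile 8.14 to 16.3, and against no stimulus the 9 spread from percentile 37.5 to 93.0.

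The untickled groups were also set against each other through the tickled group they share, by subtracting each gene's log2 ratio against light touch from its log2 ratio against no stimulus. The difference can be read as light touch over no stimulus provided that one tickled RNA served both arrays. All 9 members were above 0 on this scale, with a median of 0.20, where 48.8% of all genes were above it and 48.4% below. At 1.1-fold or more above there were 8 members, against 18.7% of all genes, and at 1.1-fold or more below there were 0, against 16.9%. No member was 1.5-fold or more from equality, which 2.33% of genes were. Markers of brain regions and of other cells also lay to one side of 0 on this scale, and their values are given with those markers. Mbp had the highest difference of the 9, at 0.37 (1.30-fold), followed by Mobp at 0.31, Mog at 0.24, Cldn11 at 0.23, Mag and Mal at 0.20, Sox10 at 0.19, Cnp at 0.16 and Olig1 at 0.12. The last lay short of 1.1-fold, at 1.09-fold.

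The difference was also read probe by probe, which removes what a probe adds to both arrays alike. All 14 probes lay above 0, from 0.09 to 0.39, where 46% of all probes with both values did. The Mbp probes, which were 0.30 and 0.27 log2 units apart on the single arrays, gave 0.39 and 0.36 and so came within 0.02 of each other. The Mog probes gave 0.24 and 0.23. The Mobp probes gave 0.37, 0.36 and 0.17, and the Cnp probes 0.09 and 0.24, so these genes kept a difference between probes of 0.20 and 0.15. Sox10, the highest member on both arrays, lay among the others on this scale.

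The sequence before the start of the myelin genes was read because Sox10 binds short HMG-box motifs and because the members on the light-touch array lay to one side of 1 with Sox10 on the other. The RefSeq table of start windows, on the GRCr8 assembly, gave sequences before 7 start sites of 6 members, Mbp with 2 and Mag, Mobp, Cnp, Mal and Cldn11 with 1 each. No window was found there for Mog, Olig1 or Sox10. In the 250 bases before each start, 3 motifs were sought on both strands, the HMG-box letters ACAAAG and ACAATG and the E-box letters CAGCTG, one of the forms bound by helix-loop-helix proteins. ACAAAG, or CTTTGT on the other strand, was in 4 of the 7 windows, against 16.3% of the 33469 start windows in the table. ACAATG was in 1 window (11.1% of all) and CAGCTG in 2 (11.97%). The matches did not overlap one another. The 3 windows below are those of members with a single start that hold ACAAAG, each written 5′ to 3′ on the strand of the gene, with matches to any of the 3 motifs in capitals. Mobp lies at chr8:128746982-128747231 on the plus strand, Cnp at chr10:86011254-86011503 on the plus strand and Mag at chr1:95291045-95291294 on the minus strand.
Mobp: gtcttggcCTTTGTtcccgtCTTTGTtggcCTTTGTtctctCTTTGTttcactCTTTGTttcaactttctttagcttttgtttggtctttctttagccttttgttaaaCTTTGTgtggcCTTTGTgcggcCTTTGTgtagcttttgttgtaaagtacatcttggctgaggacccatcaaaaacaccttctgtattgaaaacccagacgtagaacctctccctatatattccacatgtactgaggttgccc
Cnp: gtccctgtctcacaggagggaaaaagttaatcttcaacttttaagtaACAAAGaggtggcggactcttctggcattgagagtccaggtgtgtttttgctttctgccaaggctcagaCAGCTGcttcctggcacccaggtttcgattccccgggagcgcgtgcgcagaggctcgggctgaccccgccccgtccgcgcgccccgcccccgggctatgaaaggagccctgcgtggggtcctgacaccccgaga
Mag: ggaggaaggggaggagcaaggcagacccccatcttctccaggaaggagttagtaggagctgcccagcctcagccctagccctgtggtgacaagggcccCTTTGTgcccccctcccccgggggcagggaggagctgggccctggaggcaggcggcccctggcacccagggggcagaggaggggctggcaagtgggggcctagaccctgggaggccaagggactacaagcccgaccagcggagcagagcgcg
The Mobp window held CTTTGT 8 times, in the part far from the start, within a stretch of repeated T-rich units. Cnp held ACAAAG and CAGCTG once each, and Mag held CTTTGT once. The fourth window with these letters was that of the downstream Mbp start, which also held ACAATG in 2 places and CAGCTG in 1. Mobp, Cnp and Mag had ratios of 0.890, 0.907 and 0.86 against light touch, and Mal and Cldn11, whose windows held none of the letters, 0.89 and 0.91. Mbp, with 1 window that held matches and 1 that held none, had 0.891. All these ratios lie close together, and a link between motifs and ratios was not tested. GC content had a median of 62.0% over the member windows and of 51.2% over all. A match of letters is a description and not a binding site.

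Other genes of the lineage were taken from 5 lists, with 78 genes measured beside the members. Against no stimulus their median log2 ratio was 0.08, with 53 above 0 and 24 below, and at 1.1-fold or more 24 of the 78 were above 1 (all genes 20.4%) and 4 below (all genes 12%). Against light touch the median was -0.05, with 52 below 0 and 25 above, and at 1.1-fold or more 16 of the 78 were below 1 (all genes 15.3%) and 5 above (all genes 19.5%). Of all genes, 51.8% lay above 1 and 45.1% below against no stimulus. Against light touch 46.1% of all genes lay below 1 and 51.3% above. On the indirect scale 33 were 1.1-fold or more above (all genes 18.7%) and 2 below (all genes 16.9%), with a median of 0.11. Genes called the highest or lowest of a list below are so by the mean of both log2 ratios.

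Other genes of the sheath had a median log2 ratio of 0.15 against no stimulus, with 12 of 14 measured genes above 0 (all genes 51.8%). Opalin, a glycoprotein of central myelin, had ratios of 1.23 and 1.18 at its probes there, and Ninj2, an adhesion protein, 1.13. Against light touch the median was -0.01, with 8 below 0 (all genes 46.1%) and 6 above (all genes 51.3%). Opalin lay at 0.96 and 1.01 there and Ninj2 at 1.13. Myoc, a secreted glycoprotein, was the lowest of this list, at 0.80 against no stimulus and 0.90 against light touch.

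Enzymes, receptors and carriers of mature oligodendrocytes had the lowest median of the 5 lists against light touch. There 20 of 28 lay below 0 (all genes 46.1%) and 10 were 1.1-fold or more below 1 (all genes 15.3%). The median log2 ratio was -0.11. Pde8a, a cyclic nucleotide phosphodiesterase, had a ratio of 0.78, and S1pr5, a sphingosine 1-phosphate receptor of mature oligodendrocytes, 0.83. On the other side stood Tppp3, a tubulin polymerization promoting protein, at 1.39 from the 1 probe with a value. Against no stimulus the list had a median of 0.07 with 20 above 0 (all genes 51.8%). Pde8a had a ratio of 1.12 there, S1pr5 0.98, the lipid carrier Apod 1.22, Trim59 1.22 and Tppp3 1.59 and 1.19 at its probes. Apod and Trim59 were at 1 and 1.01 against light touch.

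Genes of myelin lipid and sterol synthesis lay near all genes against light touch, with a median of 0.00 over 15, and slightly above them against no stimulus, at 0.06. Fa2h, which makes the hydroxylated fatty acids of myelin galactolipids, was the lowest of the list, at 0.95 against no stimulus and 0.83 against light touch. Cyp51, a sterol demethylase, was the highest, at 1.22 against no stimulus and 1.06 against light touch. Precursor markers had medians of 0.01 against no stimulus and -0.03 against light touch over 10 genes. The proteoglycan Cspg5 was their highest, at 1.1 against no stimulus and 1.14 against light touch, and the matrilin Matn4 their lowest, at 0.96 against no stimulus and 0.91 against light touch.

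The other transcription factors of the lineage had medians of -0.03 against no stimulus and -0.07 against light touch over 11 genes. Myrf, which acts with Sox10 on the myelin genes, had a ratio of 1.2 against no stimulus and 0.99 against light touch. Nkx6-2 had ratios of 1.42 and 1.07 at its probes against no stimulus and 0.93 and 0.99 against light touch. Nkx2-2, the highest, had 1.13 against no stimulus and 1.28 against light touch. Hes5, a Notch target of precursors and the lowest, had 0.85 against no stimulus and 0.90 against light touch. Tcf7l2, which is also strongly expressed by thalamic neurons, was far from the others, with ratios of 1.78, 1.85 and 1.38 at its probes against no stimulus and 0.53, 0.51 and 0.63 against light touch.

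**Figure D3:**
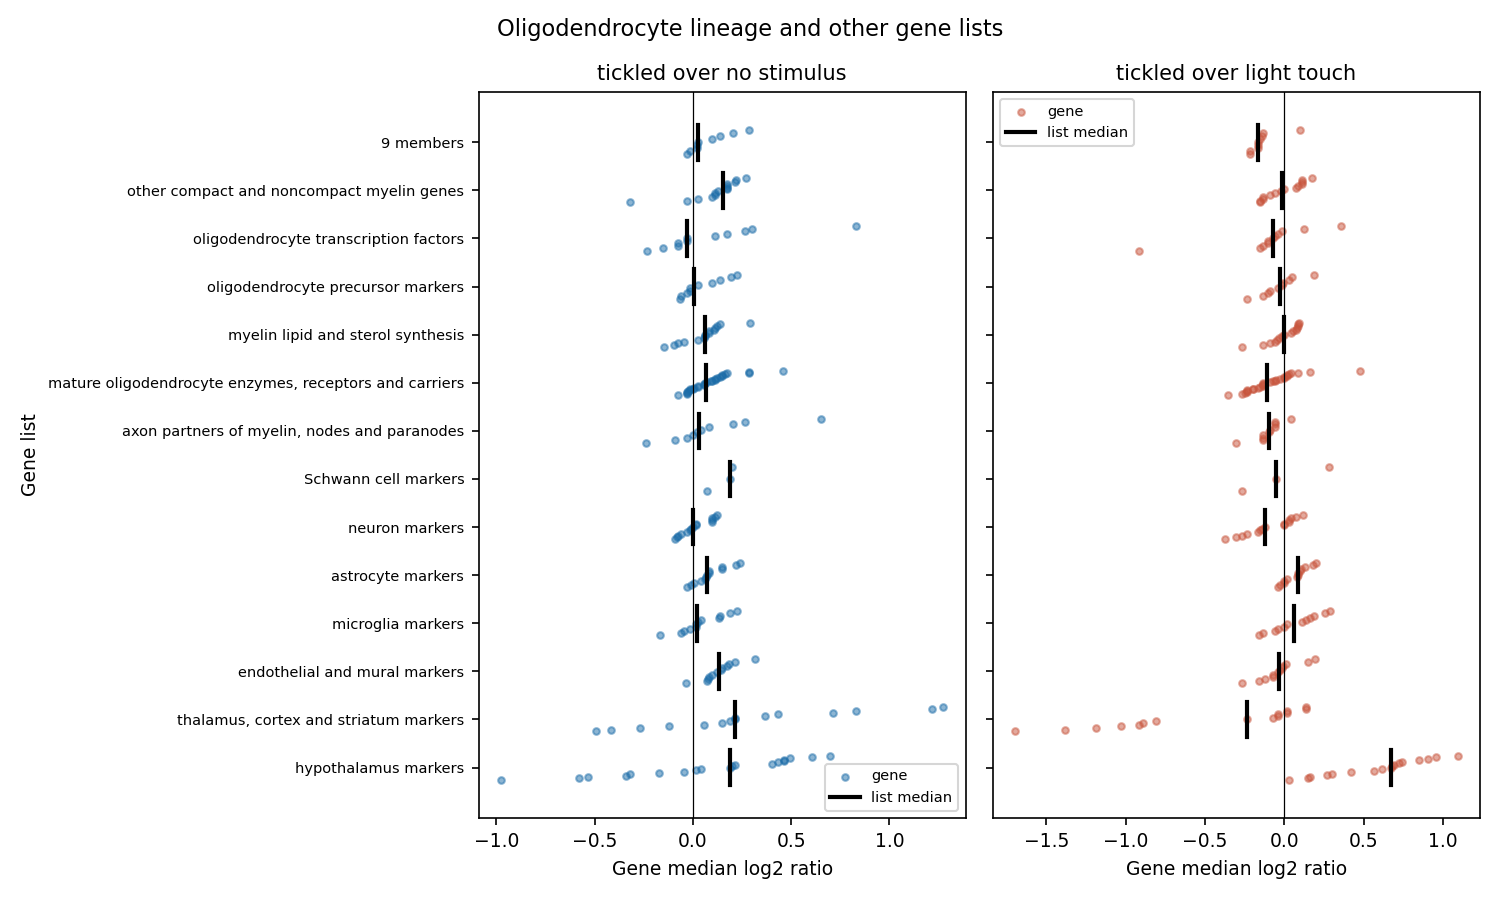
Gene median log2 ratio (horizontal axis) of each measured gene, as points, in the 9 members and 13 other lists (vertical axis), with the list median as a black bar, for tickled over no stimulus on the left and tickled over light touch on the right. Against light touch the member median is at -0.17, that of thalamus, cortex and striatum markers at -0.23 and that of hypothalamus markers at 0.67.

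Markers of the axons that myelin wraps and of other cell types were read beside the members. Axonal partners of myelin and node proteins had a median of -0.09 against light touch and of 0.03 against no stimulus. Against light touch 9 of 10 lay below 0 (all genes 46.1%), and 1 of 10 was 1.1-fold or more below 1 (all genes 15.3%). The potassium channel Kcna2 was their highest, at 1.57 against no stimulus and 0.91 against light touch, and the sodium channel Scn8a their lowest, at 0.94 against no stimulus and 0.81 against light touch from 1 probe. Neuron markers had a median of -0.12 against light touch, with 7 of 15 at 1.1-fold or more below 1 (all genes 15.3%) and 0 above (all genes 19.5%). Against no stimulus their median was 0.00. The heavy neurofilament Nefh was at 1.01 against no stimulus and 0.77 against light touch, and the growth cone protein Gap43 at 1.07 against no stimulus and 1.05 against light touch.

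Astrocyte and microglia markers had medians above 0 against light touch. Astrocyte markers had medians of 0.07 against no stimulus and 0.08 against light touch over 13 genes. On either array 0 of them were 1.1-fold or more below 1 (all genes 12% against no stimulus and 15.3% against light touch). The glutamate transporter Slc1a2 was at 1.18 against no stimulus and 1.09 against light touch, and glutamine synthetase (Glul) at 0.98 against no stimulus and 1 against light touch. Microglia markers had medians of 0.02 against no stimulus and 0.06 against light touch over 12 genes. Cd68 was at 1.17 against no stimulus from 1 probe, which gave 1.05 against light touch. A further Cd68 probe, with a value against light touch only, gave 1.36, for a gene value of 1.2 there. Trem2 was at 0.89 against no stimulus and 0.91 against light touch. Endothelial and mural markers had medians of 0.13 against no stimulus and -0.03 against light touch over 12. Cdh5 was at 1.24 against no stimulus and 1.14 against light touch, and Pecam1 at 0.978 against no stimulus and 0.893 against light touch. Of the Schwann cell markers, from the cells that make peripheral myelin, 3 had a value, with medians of 0.19 against no stimulus and -0.05 against light touch. Drp2 was at 1.14 against no stimulus and 1.21 against light touch, and Cdh19 at 1.05 against no stimulus and 0.83 against light touch.

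Markers of brain regions were read in the same way. Of the 17 hypothalamus markers with a value against light touch all were above 1 (all genes 51.3%), from 1.02 to 2.13. Their median log2 ratio was 0.67, and the melanocortin precursor Pomc was the highest. The 15 markers of thalamus, cortex and striatum ran from 0.309 to 1.1 with a median log2 ratio of -0.23, and 8 were 1.1-fold or more below 1 (all genes 15.3%). They fell into a far and a near part. Of the 15, 7 were 1.5-fold or more from 1, all below it, where 2.49% of all genes were that far in either direction. Of these 7, 4 were 2-fold or more below 1, as were 26 of the 11745 genes measured on this array. The list was itself chosen with earlier results of these data known, so these counts describe and do not test. The 7, named after their values were seen, were Slc17a7, Shox2, Prkcd, Lef1, Tcf7l2, Plekhg1 and Rgs16, several of them thalamic. The other 8 lay closer to 1. They included the cortical factors Tbr1 at 0.85 and Neurod6 at 0.97 and the striatal receptors Drd1 at 0.97 and Adora2a at 0.95. Slc17a7, a vesicular glutamate transporter of cortical and thalamic neurons, was the lowest, and the striatal phosphoprotein Ppp1r1b had the highest mean, at 1.14 against no stimulus and 1.1 against light touch. Against no stimulus the hypothalamus markers ran from 0.508 (vasopressin, Avp) to 1.62 (Pomc) with a median of 0.19 over 19, and the markers of thalamus, cortex and striatum had a median of 0.21, with 10 of 15 at 1.1-fold or more above 1 (all genes 20.4%). On the indirect scale, where the 9 members had a median of 0.20, all 17 hypothalamus markers lay below 0 (all genes 48.4%), with a median of -0.44. Of the 15 thalamus, cortex and striatum markers 11 lay above 0 (all genes 48.8%), with a median of 0.20 and up to 6.06-fold for Shox2. All 12 endothelial and mural markers lay above 0 (all genes 48.8%), with a median of 0.14. So did 8 of 10 axonal partners, with a median of 0.17, and 10 of 15 neuron markers, with 0.09, against the same share of all genes. Astrocyte markers had a median of 0.05 and microglia markers 0.01. The part of these markers in the ratios of the myelin genes was not tested.

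Member probes were also placed by their number on the array, since the running median over probes lay above 1 at both ends of the numbering. Of the 14 probes, 4 lay within 10% of the first or last probe number, together the outermost 20%, namely the Mbp probe for NM_001025293, a Cnp probe, and the single probes of Mag and Olig1. The running median of 500 neighbouring probes was 1.06 at that Mbp probe against no stimulus and 1.02 against light touch. With it divided out, the probe's ratios of 1.28 and 0.98 became 1.21 against no stimulus and 0.961 against light touch. At the single probes of Mag and Olig1 the running median against light touch was 1.07 for Mag and 1.08 for Olig1, and their ratios of 0.86 and 0.90 became 0.804 for Mag and 0.833 for Olig1. Sox10, in the middle of the numbering, changed to 1.26 against no stimulus and 1.11 against light touch. With probes of the middle 80% alone, Mbp was at 1.04 against no stimulus and 0.81 against light touch, Cnp was at 0.99 and 0.84, and Mag and Olig1 had no value. Among the named genes of the other lists, Cyp51, Cspg5, Nkx2-2, Nkx6-2, S1pr5 and Drp2 had all their probes in the outermost 20%. Their ratios above are as deposited, without the running median divided out.

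**Figure D4:**
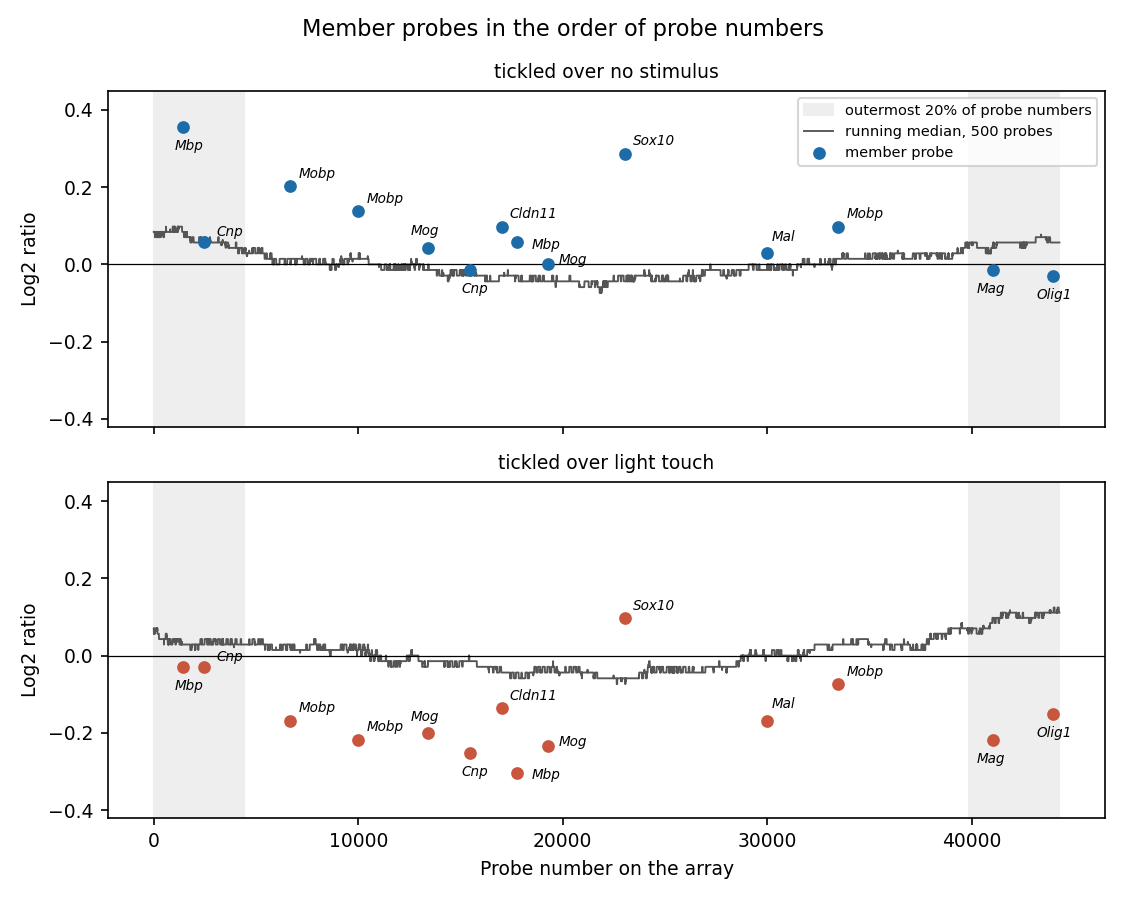
Log2 ratio (vertical axis) of the 14 member probes by probe number (horizontal axis), for tickled over no stimulus in the upper panel and tickled over light touch in the lower, with the running median of 500 measured probes as a grey line and the outermost 20% of probe numbers shaded. Against light touch 13 points lie below both 0 and the grey line, at numbers from one end of the array to the other, and the Sox10 point lies above both.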

How the data were processed

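Hypothalamic RNA was measured on 2 two-colour arrays, 1 per comparison. The values used were linear dye ratios that the authors deposited for each probe, with 2 decimals. Their median was 1 on both arrays, so they were already centred. For image analysis, background correction, normalization, numerator and empty probes, the method is not given in the sources used here. Per the labels' protocols, 500 ng of total RNA was amplified to aminoallyl cRNA and coupled to Cy3 or Cy5.

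The platform annotation gave 1 gene symbol for 23535 of 44290 probes and several for 48, and it did not list 20707. Symbols were updated by Entrez identifier through the RefSeq table of GRCr8, where 23488 probes matched and 1 symbol changed. Ratios were turned to log2 and a gene took the median of its probes (Python 3.11.15, pandas 2.3.3, numpy 2.4.6). Counts used 1.1-fold and 1.5-fold limits, with shares over all genes beside the main counts. No p-value was computed. The gene summaries were first run on simulated ratios with known changes. Alternatives were the middle 80% of probe numbers, subtraction of a running median over 500 probes, the mean of probes, probes with both values, centring on the median gene and the opposite sign. Named genes were all members, the extremes of each list by mean log2 ratio over the arrays, and lineage genes at 1.2-fold or more from 1 on either array. Members and lists were chosen with earlier results of these data known.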

Additional observations from a re-analysis of the deposited data

Results flagged for a closer look

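In 4 members every probe lay above 1 against no stimulus and below 1 against light touch, so that the sign of the tickled ratio differed between the arrays. The log2 ratio against no stimulus minus that against light touch was 0.37 for Mbp, 0.31 for Mobp, 0.20 for Mal and 0.23 for Cldn11. Each array is 1 sample, both share the tickled group, and the difference was not tested. Mal and Cldn11 rest on 1 probe each, and Mal was at 1.02 against no stimulus. The rule sets no limit of size, and the share of all genes that meet it is not given here. The other members either had a probe at or below 1 against no stimulus or, in Sox10, lay above 1 on both arrays. No group held the 4 or more samples needed to look for a sample far from the rest.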

How the results depend on the processing

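The choices of probes, summary and centring turned no member that was 1.1-fold or more from 1, but moved some by over 1.5 times. With the middle 80% of probe numbers Mbp changed from 0.21 to 0.06 against no stimulus and from -0.17 to -0.30 against light touch, and Cnp from -0.14 to -0.25 against light touch. Against light touch Mbp and Cnp then lay below Mog, at -0.22, and Mag had no value. With the running median subtracted Olig1 changed from -0.15 to -0.26 and Sox10 from 0.10 to 0.16 against light touch. The light-touch median of the other myelin genes changed from -0.01 to -0.06 with the middle 80%. Over the 5 alternatives that keep the sign, the member median log2 ratio stayed between 0.01 and 0.06 against no stimulus and between -0.18 and -0.15 against light touch, and the indirect median between 0.20 and 0.24. The wider lineage median stayed between 0.06 and 0.09 against no stimulus and between -0.08 and -0.05 against light touch. Each of these moved by less than the spread between probes of a single gene. On the single arrays that spread, 0.18, is larger than the deposited medians themselves. Even with the sign turned, the member median against no stimulus moved by less, so this limit cannot show that the medians are stable. The count of members below 1 against no stimulus was 1 of 7 with the middle 80% of probe numbers, namely Cnp on its remaining probe, while Mag and Olig1 had no probe there. As deposited it was 2 of 9. Against light touch 6 of 7 were below 1 in that setting.

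If the deposited ratio is control over tickled, all signs turn. Members below 1 then number 7 against no stimulus and 1 against light touch, and the medians become 0.17 against light touch and -0.20 indirectly. Against no stimulus the log2 values become -0.21 for Mbp, -0.14 for Mobp and -0.29 for Sox10, and the median of the other myelin genes -0.15. Against light touch they become 0.17 for Mbp, 0.22 for Mag, 0.22 for Mog, 0.17 for Mobp, 0.14 for Cnp, 0.17 for Mal and 0.15 for Olig1. Indirectly they become -0.37 for Mbp, -0.20 for Mag, -0.24 for Mog, -0.31 for Mobp, -0.16 for Cnp, -0.20 for Mal, -0.23 for Cldn11 and -0.19 for Sox10.

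No paired analysis was possible because each comparison has 1 array. Signal over background was not used here, so dim probes could not be told from bright ones.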
